A study of Mus musculus with 6 samples.

Results

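The Krüppel-like factors are a family of zinc finger transcription factors, and 10 of their genes (Klf2, Klf3, Klf4, Klf5, Klf6, Klf7, Klf9, Klf10, Klf13 and Klf16) were followed here in the 35688 gene rows of one mouse RNA-seq table. They were taken by gene symbol, and each symbol had 1 row. The cells were mOSE cells, mouse ovarian surface epithelial cells of line m1102, grown either untreated or with 10 ng/mL TGFB1 over the 4 days that preceded RNA extraction, with 3 libraries of each group. Both groups shared the culture medium, an alpha-minimum essential medium with 4% FBS, 0.01 mg/mL ITSS and, per the labels, 2 µg/mL EGF, so the untreated cells were also exposed to serum and a growth factor. The series title places the cells in the context of COX2 and ovulatory wound repair. All 6 libraries come from 1 cell line, and the labels do not say whether the 3 libraries of a group were separate cultures, so every p-value measures only the spread between these libraries, which may be technical.

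Krüppel-like factors bind CACCC boxes and related GC-rich elements through 3 similar zinc fingers at the C-terminus, and they differ in the partners bound by the N-terminal part. Klf2, Klf4, Klf5, Klf6 and Klf7 can recruit the acetyltransferases p300 and CBP and mostly activate genes, Klf3 recruits the corepressor CtBP, and Klf9, Klf10, Klf13 and Klf16 recruit Sin3 with its histone deacetylases. Klf2 and Klf4 are best known from endothelium and from growth arrest of epithelia, Klf9 from glucocorticoid and progesterone response in the uterus and elsewhere, and Klf10 was first described as a TGFB-inducible early gene.

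Expression is given as deposited, on a TPM scale (transcript abundance corrected for transcript length and library size). A gene was called when the Benjamini-Hochberg adjusted p from limma on log2(TPM + 1) was under 0.05 over 12257 tested genes, which were those averaging 1 TPM or more over the 6 libraries. Log2 fold changes are on that scale, as TGFB1 minus untreated, and understate changes of low genes. Sequencing depth is unknown, because the table holds no counts. Of 10 markers of ovarian surface epithelium and mesothelium that were tested, 6 fell and 0 rose with TGFB1 by limma (0 were higher at an unadjusted p under 0.05), and the summed level of all 12 listed went from 2298–2451 TPM to 1170–1553 TPM. Wt1, among the 4 tested markers not called, was at 172–194 TPM in untreated and 103–164 TPM in treated libraries. Among the 6 that fell, Krt7 went to 44.3% and Gpm6a to 23.5% of the untreated mean. Lhx9 was at most 0.0987 TPM. Whether the treated cells kept the labelled identity was not tested. On the first principal component, with 70.7% of the variance, treated replicate 1 stood apart at 46.6 against 20.2 and 18.1 for the other treated libraries.

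Upstream sequences of the 4 called members are shown because they hold the kind of letters that Krüppel-like factors themselves bind. Each is the stretch before the annotated start, 5′ to 3′ on the gene's strand, from RefSeq on GRCm38.p6: Klf2 at chr8:72318812-72319032 (plus strand), Klf4 at chr4:55532476-55532725 (minus), Klf6 at chr13:5861239-5861481 (plus) and Klf9 at chr19:23140976-23141225 (plus). Capitals mark CACCC (or its complement GGGTG) and GGGCGG (or CCGCCC).
Klf2: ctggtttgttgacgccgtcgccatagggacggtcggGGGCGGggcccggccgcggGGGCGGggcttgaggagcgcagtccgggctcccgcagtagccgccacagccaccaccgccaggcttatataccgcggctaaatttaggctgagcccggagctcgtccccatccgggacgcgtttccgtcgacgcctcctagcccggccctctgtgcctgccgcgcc
Klf4: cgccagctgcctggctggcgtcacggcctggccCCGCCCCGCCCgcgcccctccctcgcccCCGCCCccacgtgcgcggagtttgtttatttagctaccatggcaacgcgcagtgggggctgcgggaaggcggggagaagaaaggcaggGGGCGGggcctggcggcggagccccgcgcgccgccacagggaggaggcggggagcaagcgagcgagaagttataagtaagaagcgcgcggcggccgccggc
Klf6: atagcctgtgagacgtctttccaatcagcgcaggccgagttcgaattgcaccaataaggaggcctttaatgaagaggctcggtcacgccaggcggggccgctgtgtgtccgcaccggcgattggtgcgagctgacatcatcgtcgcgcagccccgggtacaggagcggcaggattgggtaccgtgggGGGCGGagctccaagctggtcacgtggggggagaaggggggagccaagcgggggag
Klf9: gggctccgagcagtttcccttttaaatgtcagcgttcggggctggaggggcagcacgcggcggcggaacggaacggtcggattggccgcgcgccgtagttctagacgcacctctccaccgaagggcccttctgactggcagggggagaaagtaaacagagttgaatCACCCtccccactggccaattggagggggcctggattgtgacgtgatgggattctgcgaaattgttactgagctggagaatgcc

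In these stretches GGGCGG occurred 2 times in Klf2, 4 times in Klf4, 1 time in Klf6 and 0 times in Klf9, counting both strands and matches that share a base. CACCC occurred 1 time in Klf9 and 0 times in the others. Of the 10 members, 7 had an entry among 32851 RefSeq promoters of 300 bases. CACCC was in 5 of these 7 windows, against 57.5% of all promoters, and GGGCGG in 6 of 7, against 35.7%. The windows of Klf3, Klf7 and Klf13, which were not called, each held both, so these letters do not set the called members apart. CAGAC, the SMAD-binding box, was in 1 of 7, that of Klf3, against 49.6% of all promoters. A CACCC match and a CCGCCC match can share 1 base. The share of G and C bases in the stretches shown was 71.5% for Klf2, 74.0% for Klf4, 64.2% for Klf6 and 59.6% for Klf9. The set of all promoters was not matched for this share, so the percentages do not show an excess or lack of a motif. These are letter matches in a window, and no binding was measured.

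All 10 members passed the abundance filter. Klf2, Klf4 and Klf9 fell with TGFB1, Klf6 rose, and the other 6 were not called. The 4 calls of 10 stand beside 30.4% of all tested genes called in either direction. The 3 lower calls stand beside 14.6% of tested genes called lower, and the 1 higher call beside 15.8% called higher. The median log2 fold change of the 10 was −0.27, against 0.015 over all tested genes. The 3 treated values lay wholly above or below the 3 untreated values in 6 of the 10, and in 49.8% of tested genes. By partner class, the 5 p300/CBP-binding members held 1 higher and 2 lower calls, the 4 Sin3-binding members 1 lower call, and Klf3 was not called.

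**Figure D1:**
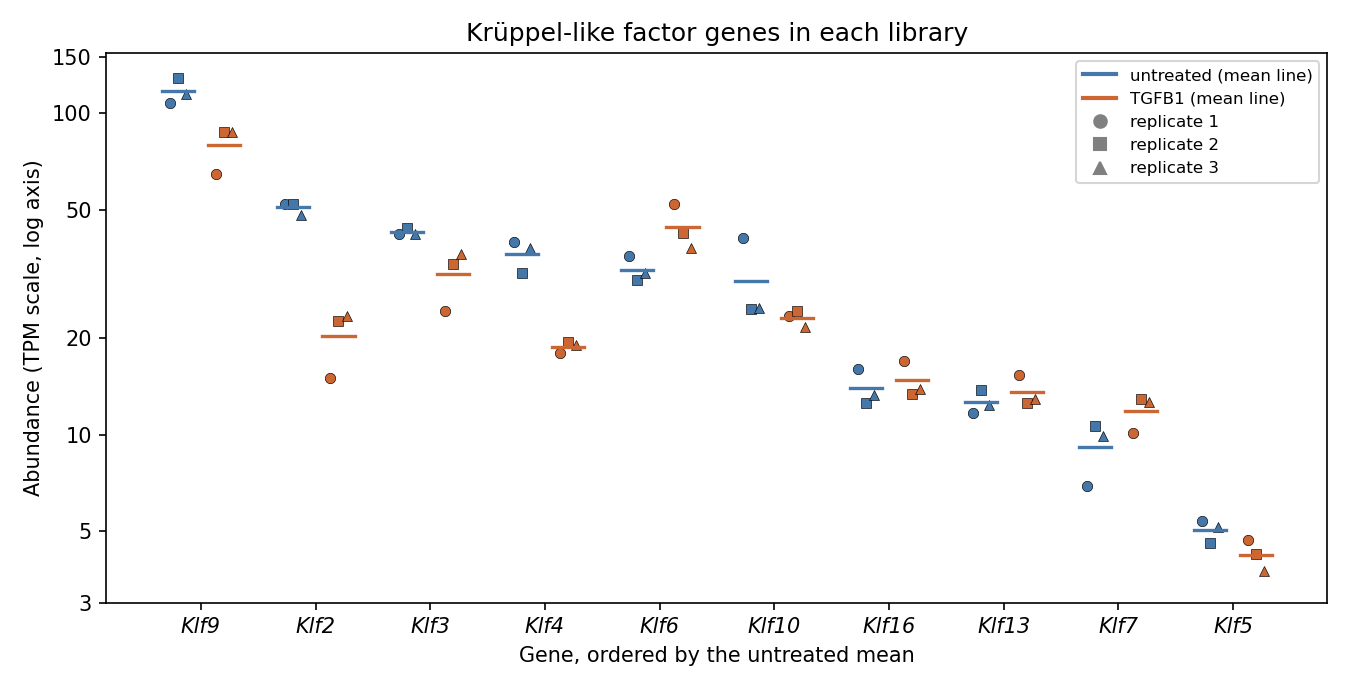
Abundance of each of the 10 genes in TPM (log axis) in the 3 untreated and 3 TGFB1 libraries, with 1 point per library and a bar at each group mean. Klf2 and Klf4 show wide gaps between the groups, whereas the points of Klf5, Klf7, Klf13 and Klf16 overlap.

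Klf2, the factor induced by laminar flow in endothelium and needed for quiescence of T cells, changed most among the members. It was at 52.3, 52.2 and 48.5 TPM in untreated replicates 1, 2 and 3 and at 15.0, 22.7 and 23.4 TPM in the TGFB1 libraries. Every treated value lay below every untreated one, with the lowest in replicate 1. The mean went from 51.0 ± 2.19 to 20.3 ± 4.63 TPM (SD, n = 3 each), to 39.9% of the untreated mean, with a log2 fold change of −1.31 (SE 0.161, 95% interval −1.69 to −0.93, limma adjusted p = 0.00227). Without treated replicate 1 the log2 fold change was −1.11 (adjusted p = 0.000103). Klf2 was called under all 16 alternative settings tried. In such bulk RNA, fewer cells of a type and less RNA per cell cannot be told apart. Of the 10 tested surface epithelial markers, 6 were called lower beside this gene and 4 were not called. The part of these markers in the result was not tested. The gene lies at chr8:72319033-72321656 on the plus strand of GRCm38.

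Klf4, which drives epithelial differentiation and cell cycle arrest and is one of the reprogramming factors, fell as well. Untreated libraries had 39.8, 31.8 and 38.1 TPM, and treated libraries 18.0, 19.4 and 19.0 TPM. The treated values were close to each other and all below the untreated ones. The mean went from 36.6 ± 4.19 to 18.8 ± 0.744 TPM (SD, n = 3 each), 51.4% of the untreated mean, with a log2 fold change of −0.92 (SE 0.0951, 95% interval −1.14 to −0.69, limma adjusted p = 0.00125). The call held under all 16 alternatives. Klf4 lies at chr4:55527143-55532466 on the minus strand.

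Endothelium is the tissue in which Klf2 and Klf4 are best known, and its markers were nearly absent here. Cldn5 was at 0 in all 6 libraries, Kdr was at most 0.0209 TPM and Cdh5 at most 0.446 TPM, and the sum of the 8 endothelial markers was 1.26–1.34 TPM untreated and 1.92–2.42 TPM treated. Leukocyte markers summed to 19.7–27.4 TPM untreated and 8.37–11.2 TPM treated, almost all of it from the lysosomal gene Cd68 (7.16–25.9 TPM over the 6 libraries), while the pan-leukocyte gene Ptprc was at most 0.0843 TPM.

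Klf6 and Klf7 are ubiquitous activators, and Klf6 is known as an early gene of injured epithelium and stellate cells. Klf6 was at 36.0, 30.2 and 31.8 TPM in untreated libraries and at 52.2, 42.5 and 38.0 TPM in treated ones. The groups did not overlap, but the highest untreated and lowest treated values were close. The mean went from 32.7 ± 2.95 to 44.2 ± 7.26 TPM (SD, n = 3 each), a ratio of 1.35, and the log2 fold change was 0.42 (SE 0.126, 95% interval 0.12 to 0.72, limma adjusted p = 0.0454). This call was lost under 8 of the 16 alternatives, among them leaving out any 1 untreated library (adjusted p from 0.0635 to 0.133), treated replicate 1 (log2 fold change 0.29, adjusted p = 0.0521) or treated replicate 2 (adjusted p = 0.0883), testing without an abundance filter (0.101), median-of-ratios scaling (0.0562) and variances without a trend (0.0589). Klf6 lies at chr13:5861482-5870394 on the plus strand.

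Klf7, a factor of neuronal and adipose differentiation, had 6.93, 10.6 and 9.90 TPM untreated and 10.1, 12.9 and 12.6 TPM treated. The groups overlapped, and untreated replicate 1 was the low value. Its log2 fold change was 0.35 (95% interval −0.04 to 0.75, adjusted p = 0.151), and 0.19 without untreated replicate 1. With a term for the replicate number it was called (adjusted p = 0.0375). Of the 31-base words of the Klf7 transcripts, 38.7% also occur in some other gene, the gene sharing most being Gm26649, a non-coding gene on the opposite strand, so its level is uncertain where reads could be split. Klf5, which promotes proliferation of epithelia and smooth muscle, had 5.40, 4.59 and 5.16 TPM untreated and 4.69, 4.24 and 3.76 TPM treated, with a log2 fold change of −0.21 (95% interval −0.48 to 0.06, adjusted p = 0.200). The Klf5 groups overlapped, and it was the member with the lowest level in both groups.

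Klf3, the CtBP-recruiting repressor of adipose and erythroid genes, was just outside the threshold. It had 42.2, 44.0 and 42.2 TPM in untreated libraries and 24.3, 33.9 and 36.4 TPM in treated ones. The untreated values were tight, the treated ones were spread, and the groups did not overlap. The log2 fold change was −0.45 (SE 0.144, 95% interval −0.79 to −0.11, limma adjusted p = 0.0556). Klf3 was called lower without treated replicate 1 (log2 fold change −0.28, adjusted p = 0.0161), without treated replicate 3 (−0.56, 0.0376), with median-of-ratios scaling (−0.47, 0.0469) and with a term for the replicate number (0.0458). Klf3 shares 4.53% of its 31-base words with any other gene, the antisense gene Gm20033 sharing most.

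Among the Sin3-binding members Klf9 was called. Klf9, a glucocorticoid-, progesterone- and thyroid hormone-responsive repressor of proliferation, was the most abundant member in both groups. It had 108, 129 and 115 TPM in untreated libraries and 65.0, 87.3 and 87.6 TPM in treated ones, with no overlap and the lowest value in treated replicate 1. The mean went from 117 ± 11.1 to 80.0 ± 13.0 TPM (SD, n = 3 each), 68.3% of the untreated mean, with a log2 fold change of −0.55 (SE 0.132, 95% interval −0.87 to −0.24, limma adjusted p = 0.0212). The call was lost without an abundance filter (adjusted p = 0.0557), without untreated replicate 2 (−0.48, 0.0718) and without untreated replicate 3 (0.0652), and held without treated replicate 1 (−0.41, 0.0104). Klf9 lies at chr19:23141226-23168134 on the plus strand and hosts the miRNA gene Mir1192.

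Klf10, the TGFB-inducible early gene, was not called at 4 days. It had 41.0, 24.6 and 24.8 TPM in untreated libraries and 23.3, 24.3 and 21.6 TPM in treated ones. Every treated value lay below every untreated value, but by little except for untreated replicate 1. The log2 fold change was −0.33 (95% interval −0.79 to 0.12, adjusted p = 0.233), and −0.10 without untreated replicate 1 (adjusted p = 0.417). Fos and Egr1, immediate-early genes induced by growth factors, were also highest in that library, at 42.9 and 48.6 TPM, against 18.1 and 29.1 TPM for Fos and 21.4 and 28.3 TPM for Egr1 in the other untreated libraries. The part of this library in the Klf10 value beyond leaving it out was not tested.

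Klf13 and Klf16 are broadly expressed repressors and gave overlapping groups. Klf13 had 11.7, 13.8 and 12.3 TPM untreated and 15.4, 12.6 and 12.9 TPM treated, a log2 fold change of 0.10 (95% interval −0.14 to 0.35, adjusted p = 0.495), which was 0.016 without treated replicate 1, 0.053 without untreated replicate 1 and 0.16 without untreated replicate 2. Klf16 had 16.1, 12.5 and 13.3 TPM untreated and 17.0, 13.4 and 13.8 TPM treated, a log2 fold change of 0.07 (95% interval −0.22 to 0.37, adjusted p = 0.683), which became −0.02 without treated replicate 1. For both genes the interval excludes the log2 fold change estimated for Klf9 (−0.55), which has its own interval of −0.87 to −0.24. The difference between the members was not tested. The other members lie at chr5:64803388-64832901 (Klf3), chr14:99298691-99315036 (Klf5), chr1:64029447-64122282 (Klf7), chr15:38291463-38300706 (Klf10), chr7:63886351-63938915 (Klf13) and chr10:80567124-80577321 (Klf16).

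**Figure D2:**
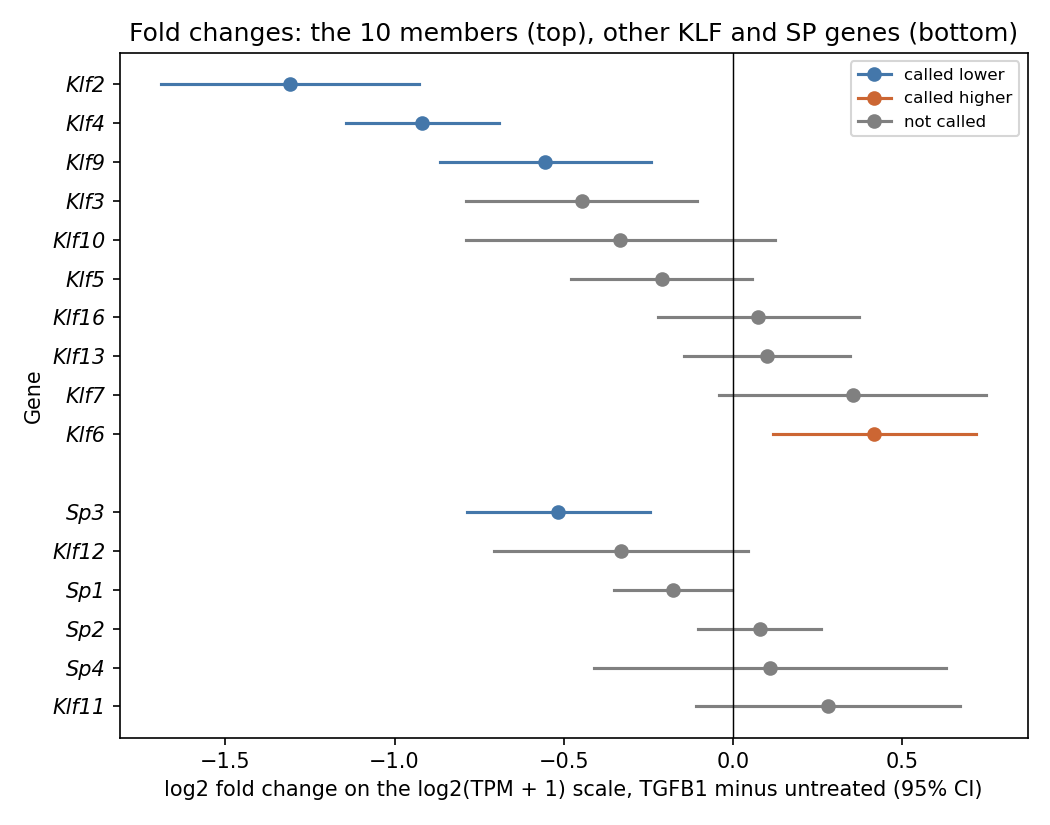
Log2 fold change with 95% interval of the 10 genes (upper rows) and of the other tested KLF and SP genes (lower rows), on the log2(TPM + 1) scale, coloured by call. Klf2 is at −1.31 and Klf4 at −0.92, Klf6 is the one gene called higher at 0.42, and Sp3 is the one called gene of the lower rows.

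Treated replicate 1 was the treated library farthest from the untreated mean in 7 of the 10 members, including all 4 that were called. The same library stood apart over all tested genes on the first principal component. How often it was farthest among all tested genes was not computed. The direction of Klf2, Klf4, Klf6 and Klf9 was the same whichever library was left out. With groups that do not overlap this could not come out otherwise, so it adds no support.

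**Figure D3:**
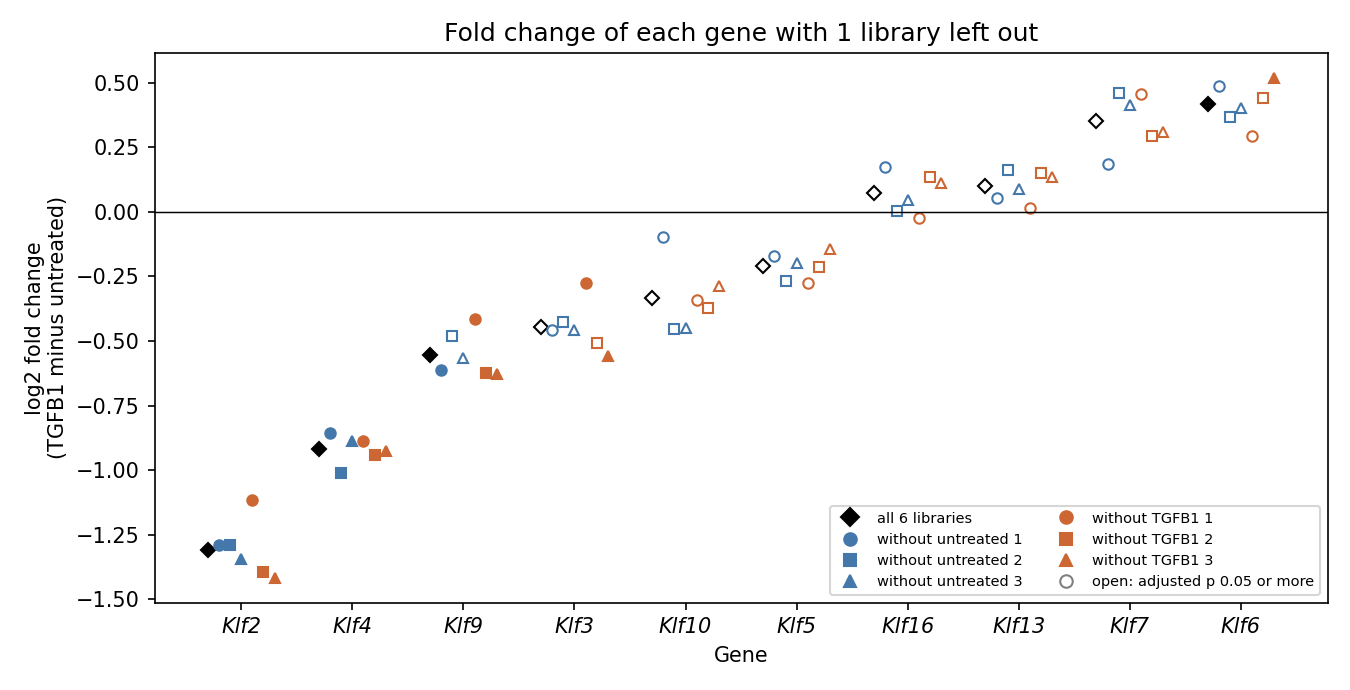
Log2 fold change of each gene with all 6 libraries (diamonds) and with 1 library left out (other markers), where filled markers have an adjusted p under 0.05. Klf2 and Klf4 are filled throughout, Klf10 moves to −0.10 without untreated replicate 1, and Klf3 is filled without treated replicate 1 or 3.

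The order of abundance changed along with the levels. In untreated cells it ran Klf9, Klf2, Klf3, Klf4, Klf6, Klf10, Klf16, Klf13, Klf7, Klf5 by mean TPM. Neighbours overlapped in their ranges over libraries in 3 of the 9 steps, which were Klf4 and Klf6, Klf6 and Klf10, and Klf16 and Klf13. With TGFB1 the order was Klf9, Klf6, Klf3, Klf10, Klf2, Klf4, Klf16, Klf13, Klf7, Klf5, with overlap in 5 of 9 steps. Klf2 went from rank 2 to rank 5, and Klf6 from rank 5 to rank 2. These ranks are descriptions without a test.

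The summed level of the 10 genes was 359, 354 and 341 TPM in untreated libraries and 245, 273 and 269 TPM in treated ones, with no overlap. The mean of the sum went from 351 ± 9.33 to 262 ± 15.3 TPM (SD, n = 3 each). Klf9 made up 33.4% of the sum without and 30.3% with TGFB1, Klf2 14.5% and 7.70%, and Klf6 9.30% and 17.0%. The 5 p300/CBP-binding members together had 129–140 TPM untreated and 96.7–102 TPM treated, and the 4 Sin3-binding members 165–180 TPM and 121–138 TPM.

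**Figure D4:**
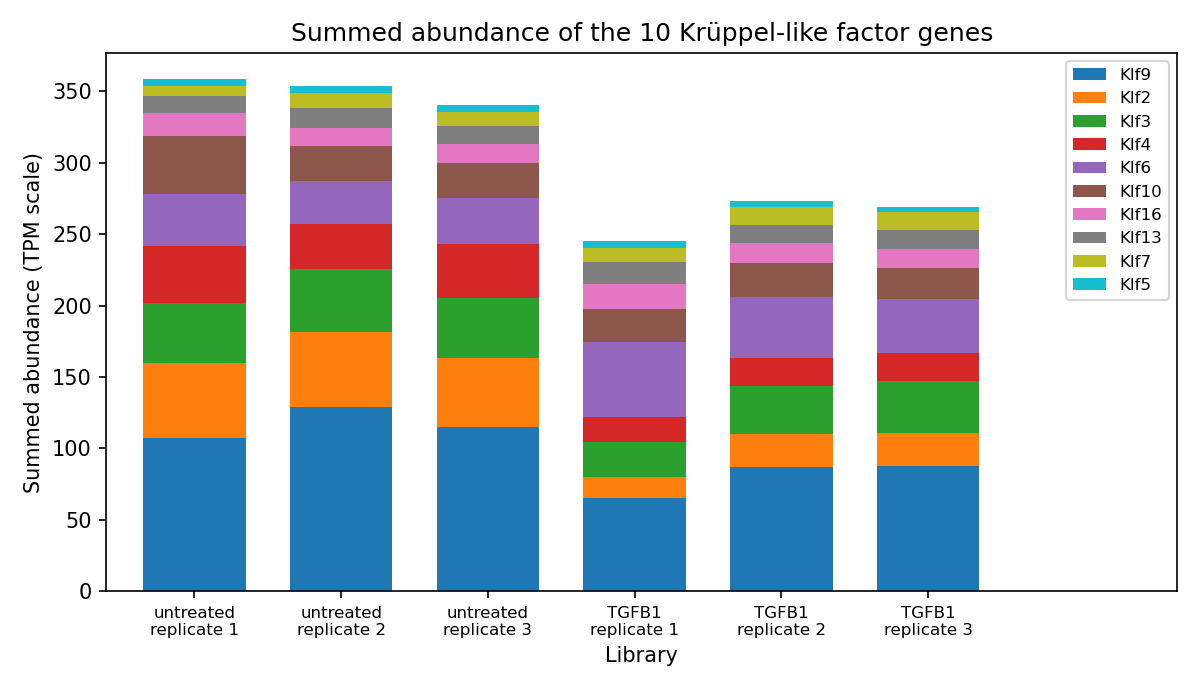
Stacked abundance in TPM of the 10 genes in each of the 6 libraries. The untreated stacks reach 341 to 359 TPM and the treated ones 245 to 273 TPM, with Klf9 as the largest share and a narrower Klf2 band in the treated libraries.

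Of the 7 other Krüppel-like factor genes listed, only Klf11 and Klf12 were abundant enough to test, and limma called 0 of these 2, with 0 at an unadjusted p under 0.05. Klf11, a Sin3-binding relative of Klf10, went from 4.96 ± 0.864 to 6.25 ± 1.16 TPM (log2 fold change 0.28, 95% interval −0.11 to 0.67, limma adjusted p = 0.240). Klf12, a CtBP-binding relative of Klf3, went from 7.60 ± 1.64 to 5.78 ± 0.652 TPM (−0.33, −0.71 to 0.05, limma adjusted p = 0.158). Klf1, Klf8 and Klf15 stayed at or below 0.276 TPM in every library, and Klf14 and Klf17 were listed at 0 in all 6. Of the 9 SP genes, which share the zinc finger domain and bind the same GC-rich boxes, 4 were tested, and 1 was called. Sp3 had 62.0, 61.3 and 62.2 TPM untreated and 35.6, 46.3 and 48.0 TPM treated, with no overlap. Its log2 fold change was −0.52 (limma adjusted p = 0.0164), and the call was lost when any 1 untreated library was left out (adjusted p up to 0.0598). Sp1, the ubiquitous activator, had a log2 fold change of −0.18 (adjusted p = 0.111), Sp2 of 0.08 (0.467) and Sp4 of 0.11 (0.739), or 0.30 without treated replicate 1.

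The partners of these factors were measured too. Of 11 corepressor and coactivator genes, all tested, 3 rose and 1 fell, with a median log2 fold change of 0.12 against 0.015 over all genes. For this list and those below, the shares of all tested genes were 15.8% called higher and 14.6% called lower. Hdac1 and Hdac2, the class I deacetylases of the Sin3 complex, went from 26.9 ± 2.44 to 36.5 ± 1.56 TPM (log2 fold change 0.43, limma adjusted p = 0.00965) and from 77.1 ± 0.544 to 99.0 ± 4.39 TPM (0.36, limma adjusted p = 0.00519). Hdac1 shares 40.0% of its 31-base words with other genes, Gm10093 sharing most, so its value is uncertain. Sin3b, a scaffold of that complex, went from 95.3 ± 3.12 to 115 ± 8.24 TPM (0.27, limma adjusted p = 0.0273), a call lost without any 1 untreated library or treated replicate 3 (adjusted p up to 0.0844). The acetyltransferase gene Kat2b fell from 39.8 ± 0.217 to 32.7 ± 3.34 TPM (−0.28, limma adjusted p = 0.0437), and that call was lost in 9 alternatives (adjusted p up to 0.116). The other 7, with the genes of CtBP and of p300 and CBP among them, were between −0.24 and 0.22. Among them Sin3a, the other Sin3 scaffold gene, was 0.12 (limma adjusted p = 0.557) and became 0.30 and called higher without treated replicate 1 (limma adjusted p = 0.0254).

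The kinases MEK5 and ERK5 (genes Map2k5 and Mapk7) activate MEF2 factors at the Klf2 and Klf4 genes, and ubiquitin ligases shorten the life of several of the proteins. Of 12 such genes, all tested, 3 rose, 0 fell by limma (2 were lower at an unadjusted p under 0.05), and the median log2 fold change was 0.09. All 3 that rose encode ubiquitin ligases or, for Fbxw7, the substrate-binding subunit of one. Fbxw7 had 7.34, 7.43 and 7.57 TPM untreated and 21.4, 13.1 and 12.3 TPM treated (log2 fold change 0.93, limma adjusted p = 0.0133) and kept its call in every alternative. Smurf2 went from 39.2 ± 4.27 to 50.7 ± 0.673 TPM (0.37, limma adjusted p = 0.0211), and lost its call without treated replicate 2 or 3. Smurf1 went from 20.3 ± 0.857 to 26.3 ± 4.00 TPM (0.35, limma adjusted p = 0.0499), and lost its call in 12 alternatives (adjusted p up to 0.130). Without treated replicate 1 its log2 fold change was 0.23 (limma adjusted p = 0.0397). Map2k5, Mapk7, Mef2a, Mef2c, Mef2d and the remaining ligases were between −0.22 and 0.21 and were not called.

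Of 10 genes of glucocorticoid and progesterone response, the setting in which Klf9 is best known, 7 were tested, 2 rose and 1 fell, with a median log2 fold change of 0.00. The kinase gene Sgk1 had 9.64, 13.1 and 11.3 TPM untreated and 159, 55.1 and 58.5 TPM treated (2.73, limma adjusted p = 0.00364), and Hsd11b1, whose enzyme regenerates active glucocorticoid, went from 5.90 ± 1.95 to 17.3 ± 3.00 TPM (1.43, limma adjusted p = 0.00502). The receptor gene Nr3c1 fell from 54.6 ± 0.637 to 46.9 ± 1.51 TPM (−0.22, limma adjusted p = 0.0281), a call lost in 6 alternatives (adjusted p up to 0.0951). The progesterone receptor gene Pgr was listed at 0 in all 6 libraries. The other 4 tested genes, which include the glucocorticoid targets Fkbp5 and Tsc22d3, were between −0.52 and 0.12. The lowest was Dusp1, a phosphatase gene, which was −0.24 and called lower without treated replicate 1 (limma adjusted p = 0.0467).

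Of 32 genes reported as targets of one or another Krüppel-like factor, 24 were tested, of which 12 rose and 2 fell. Of all tested genes, 15.8% were called higher and 14.6% lower. The median log2 fold change of the list was 0.30. Many of the listed genes are also known TGFB-responsive genes, and the list mixes activated and repressed targets. S1pr1, a Klf2 target in T cells and endothelium, moved opposite to Klf2, from 0.503, 0.526 and 0.588 TPM untreated to 47.4, 28.9 and 26.5 TPM treated (4.47, limma adjusted p = 0.00011). The 2 listed targets called lower were Hmox1 (−0.89, limma adjusted p = 0.00430) and Edn1 (−0.55, limma adjusted p = 0.00820). Col1a1, the collagen chain gene, rose by 4.35 on the log2 scale. Pdgfa, a growth factor gene, went from 21.8 ± 1.69 to 65.5 ± 36.2 TPM (1.42, limma adjusted p = 0.0185), a call lost without a filter or without any 1 untreated library (adjusted p up to 0.0658). Pdgfa had 107, 44.8 and 44.5 TPM in the treated libraries, with replicate 1 far above the others. Counting either strand, 23.3% of the 31-base words of Pdgfa also occur in other genes, with the antisense gene 6330403L08Rik sharing most. Without treated replicate 1 the list held 11 higher and 4 lower calls, and without any 1 untreated library 8 and 2.

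Klf2, Klf4, Klf6 and Klf10 can behave as immediate-early genes, so the classical ones were set beside them. Of 16 listed, 14 were tested, with 3 higher, 2 lower and a median log2 fold change of −0.01. Egr1 had 48.6, 21.4 and 28.3 TPM untreated and 7.95, 12.1 and 11.3 TPM treated (−1.50, limma adjusted p = 0.0110). Zfp36, an mRNA-destabilizing factor gene, fell from 81.4 ± 4.94 to 36.7 ± 12.9 TPM (−1.19, limma adjusted p = 0.0153), a call lost without untreated replicate 1 or 3 (adjusted p up to 0.0580). Myc went to 19.7 ± 13.3 TPM in treated libraries from 7.12, 6.95 and 6.18 TPM (1.24, limma adjusted p = 0.0494) and was 0.75 without treated replicate 1. The calls of Myc and of Fosb (1.18, limma adjusted p = 0.0475) were each lost in 9 alternatives, and Fosb was 0.78 without treated replicate 1. Ier3, the remaining gene called higher, went from 227 ± 17.5 to 464 ± 118 TPM (limma adjusted p = 0.00615). It kept its call in every alternative (adjusted p up to 0.0294), with a log2 fold change of 0.80 without treated replicate 1. Without untreated replicate 1, 2 or 3 the higher and lower calls of this list were 1 and 1, 1 and 4, and 1 and 1, and without treated replicate 1 they were 4 and 3.

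Markers of other cells that an ovarian culture could hold are given for completeness, and their part in the Klf results was not tested. Granulosa markers summed to 35.8–38.9 TPM untreated and 35.4–36.1 TPM treated, with Fshr at 0, although Foxl2 was called higher (log2 fold change 0.28, limma adjusted p = 0.0265) and Inha lower (−0.75, limma adjusted p = 0.0152). Theca and steroidogenic markers summed to 282–328 TPM and 79.8–183 TPM, nearly all from Star, with Lhcgr at 0. Smooth muscle and pericyte markers summed to 1359–1748 TPM and 1668–2131 TPM, nearly all from Acta2, and of the tested ones Cnn1 was called higher (1.56, limma adjusted p = 0.0182). Oocyte markers summed to 10.5–24.3 TPM and 6.94–9.32 TPM, nearly all from Ddx4, with Zp2 at 0.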

How the data were processed

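Poly(A)-selected RNA from mOSE cells (250 ng of total RNA per library, strand-marking kit per the labels' protocols) was sequenced in 6 libraries. The authors deposited 1 table of signal values per gene, on a TPM scale; its column totals (983434 to 1026702) differ between libraries, and depth is unknown. Per the submitters' processing notes, the tools were sleuth 0.30.0 and kallisto 0.44.0 with build GRCm38, without their roles.

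Values were tested with limma 3.58.1 in R 4.3.3 (trended variances) on log2(value + 1), two-sided, for the 12257 genes averaging 1 or more, with Benjamini-Hochberg adjustment over all of them and no covariate. Positions and shared 31-base words come from GENCODE M21 on GRCm38, where 35022 table identifiers were found and 666 were not. A word counted as shared if it or its reverse complement occurs in another gene. Promoters come from RefSeq, GRCm38.p6 (Python 3.11.15). The method was tested on simulated data.

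Named were all 10 members; of each other list every tested gene where 5 or fewer were tested, otherwise up to 4 called genes with the largest absolute log2 fold change; and markers by level. Of the reported targets, 1 gene named by this rule is not reported here. Fos, Sin3a, Dusp1, Ier3, Hmox1 and Edn1, and Cd68, Star, Sp7, Cdkn2b and Ccnd1 by their levels, were chosen after their values were seen. The members and lists were chosen with earlier results of these data known. Alternatives were other pseudocounts, filters and scalings, variances without a trend, a replicate term, repeated rows removed, and each library left out.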

Additional observations from a re-analysis of the deposited data

How the results depend on the processing

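Of 159 values of single members under alternatives, 143 kept their side of the threshold, 11 lost a call and 5 gained one. Direction changed in 0 values where either fit was called, while uncalled values could change sign, as Klf16 did. Of 1162 values of listed genes, 1055 kept their side of the threshold, 84 lost a call and 23 gained one. The number of called members was 4 (1 higher, 3 lower) and became 2 (both lower) without an abundance filter, where 22740 genes were tested; leaving out 1 library gave 2 to 5. The number of called listed genes was 30, and 18 to 35 with 1 library left out; all called genes were 3725, and 2030 to 3950 with 1 library left out. With fewer libraries a group of 2 remains, tested with the pooled spread. Rescaling without mitochondrial genes and the 20 most abundant genes gave 2389 higher and 1423 lower calls, 62.7% higher, against 1937 and 1788, 52.0% higher, and left the member calls at 1 and 3. Whether the replicate numbers pair the samples was not settled. Deviations of same-numbered libraries correlated at 0.198, 0.153 and −0.0384, and those of differently numbered libraries at −0.227 to 0.184. With the replicate number as a block, 6 members (2 higher, 4 lower), 31 listed genes and 3830 of all genes were called. Klf5 has no value with a filter of 5 TPM, being below it. Depth limits could not be computed.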

Other observations

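Sp7, an SP family factor of bone-forming cells, was at 3.50 TPM in untreated replicate 2 and at most 0.02 TPM in the other 5 libraries. Cdkn2b, a cell cycle inhibitor gene listed among the reported targets, was at 0 in all 6 libraries, and Ccnd1, the cyclin D1 gene of the same list, was between 0.335 and 0.590 TPM.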
